A study of Homo sapiens with 18 samples.

Results

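The genes described here are 10 mRNAs led by RAB13 and NET1, out of 57865 genes summed in 18 libraries. Of these, 9 are mRNAs known to collect in cell protrusions, and STRADB joins them because it overlaps TRAK2 on the other strand. They were chosen by the measured RNA levels in extracellular vesicles (EVs) and cells, because RAB13 and NET1 led the genes that were higher in EVs. Their EV-to-cell difference is therefore described without a test.

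HEK293T is an established line of human embryonic kidney cells. Wild-type cells, 1 clone lacking ATG7 (ATG7-/-, clone F2) and 1 clone lacking ATG12 (ATG12-/-, clone D9) were used, with no further allele or agent named in the labels. All were grown in DMEM with 10% FBS and then kept for 24 h without serum, so the wild-type controls were starved too. RNA of EVs and of cells gave 3 libraries for each genotype, 6 groups in all. ATG7 and ATG12 act in the conjugation that attaches LC3 proteins to membrane lipid. With 1 clone for each knockout, a difference between genotypes and one between clones cannot be told apart.

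Cells that migrate extend protrusions, and a set of mRNAs travels there along microtubules and is held at their tips. RAB13 and NET1 are among the best known of these mRNAs. Their transport depends on the tumour suppressor APC, and GA-rich stretches in their 3′ untranslated regions (3′ UTRs) are needed for it. The kinesin KIF1C carries such mRNAs and its own mRNA is one of them. How far HEK293T cells formed protrusions in these cultures is not given in the labels.

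The GA-rich stretches are shown first because they are the sequence feature that mRNAs of this class are known for. The motif searched was RGAAGRR, with R standing for A or G, on the mRNA strand, overlapping matches counted. Each line is the 30-base window of the 3′ UTR with the most bases in the motif, 5′ to 3′ on the mRNA strand, with motif matches in capitals (GENCODE 29 transcripts, GRCh38).
RAB13, chr1:153981911-153981940, minus strand: aaaaaaGGAAGAGagaGGAAGGGAGAAGGG
KIF1C, chr17:5024308-5024337, plus strand: ggaggctgaggaaaGGAAGAGggcacggag
TRAK2, chr2:201380141-201380170, minus strand: caggttAGAAGGAtgGGAAGAGaaaaggag
PKP4, chr2:158680762-158680791, plus strand: gaaatgtgaaagtgaagtGGAAGGAatgaa
CYB5R3, chr22:42619176-42619205, minus strand: tagagtgGGAAGAGggggctggccatgggg
KANK2, chr19:11166210-11166239, minus strand: atggatggaGGAAGAGggagaggaaaaaaa
The RAB13 window holds A and G alone, 30 of 30 bases, and 21 of them lie in the motif. The windows of KIF1C and TRAK2 hold 26 purines each. No match was found in the 3′ UTRs of the transcripts searched for NET1 (NET1-201), STRADB (STRADB-203), DDR2 (DDR2-201) and DYNLL1 (DYNLL1-201). Other transcripts of these genes were not searched, among them DDR2-202, with a 3′ UTR of 7154 bases against 175 in DDR2-201.

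Over the whole 3′ UTR, RAB13 stood near the top of the genes measured. Its 448 bases hold 5 matches, or 11.2 per kb, at percentile 99.3 of 13684 genes, and 65.8% of them are A or G, at percentile 99.6. PKP4 followed with 1 match in 102 bases, or 9.80 per kb. TRAK2 holds 5 matches in 3336 bases (1.499 per kb), KIF1C 3 in 4250 (0.706 per kb), CYB5R3 1 in 920 (1.09 per kb) and KANK2 2 in 2288 (0.874 per kb). Among all 13684 genes 54.9% hold the motif, with a median of 0.519 per kb, against 6 of the 10 mRNAs, or 60%, with a median of 0.79 per kb. The reverse complement of the motif, which served as a comparison, is in 58.4% of the genes and in 60% of the 10. The median purine content was 50.1% for the 10 and 48.8% for all genes, with NET1 at 51.1% (percentile 75.3). The motif share of the 10 was thus near that of all genes, and RAB13 was the member with several matches at a high density. The density of PKP4 rests on 1 match in the short 3′ UTR of PKP4-217, a transcript that held 4.08% of PKP4 in EVs. A missing match says only that these letters are not in the UTR of the transcript used.

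**Figure D1:**
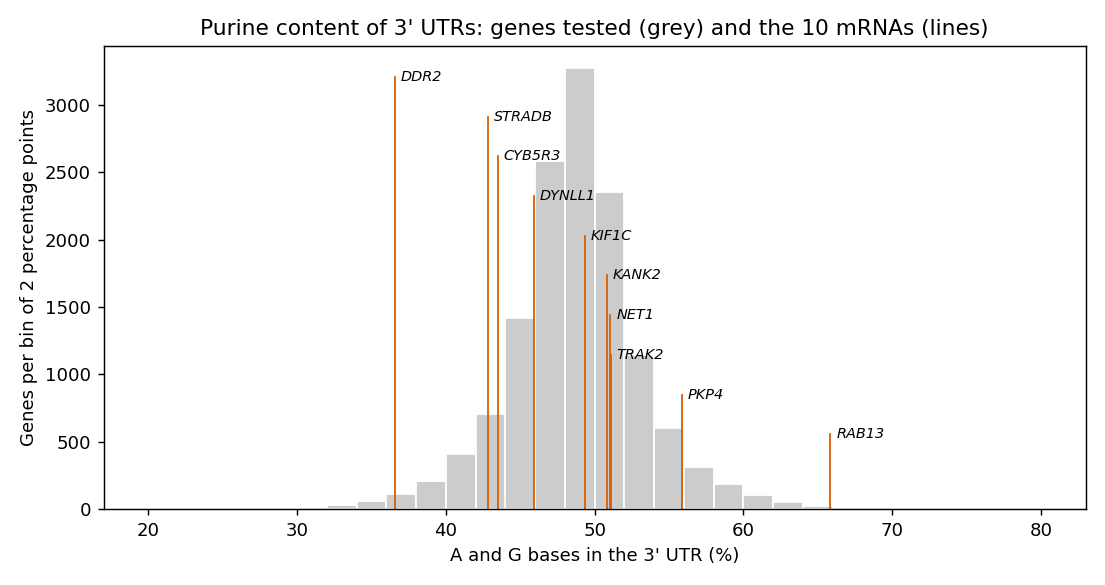
Purine content of 3′ UTRs: the x axis is the share of A and G bases (%), the y axis the number of genes per bin of 2 percentage points (grey bars), and orange lines mark the 10 mRNAs, their heights set only for legibility. RAB13 lies at 65.8%, in the upper tail, while NET1, at 51.1% (percentile 75.3), lies above the median of 48.8%.

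Values are TPM, a share of each library's reads scaled by transcript length, so they can be compared between genes and say nothing of the amount of RNA. More vesicles that hold an mRNA and more copies in each vesicle cannot be told apart in such bulk libraries. The strand setting behind the values is not given, although the kit keeps strand. If it was set wrongly, a member's TPM would come from the other strand or from stray reads. TPM carry no depth, so the number of reads behind a value is unknown. Of 8 genes chosen as HEK293T-like markers, 5 had a mean of at least 1 TPM in cells, and their sum was 7.03 to 30.7 TPM in cells and 18.04 to 104 in EVs. CD3E, HBB, ALB and VWF, of T cells, red cells, liver and endothelium, were listed at 0 in all 18 libraries.

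RAB13 encodes a small GTPase that steers vesicles to the cell surface and to cell junctions. It had 306, 309 and 295 TPM in wild-type EVs, 487, 449 and 457 in ATG7-/- EVs and 621, 681 and 646 in ATG12-/- EVs. The cell libraries held 6.43, 7.70 and 9.19 TPM in wild type, 7.91, 8.16 and 14.5 in ATG7-/- and 3.59, 4.29 and 6.63 in ATG12-/-. All 9 EV libraries lay far above all 9 cell libraries, and the 3 genotypes did not overlap in EVs. The EV mean was 39.0, 45.5 and 134 times the cell mean in wild type, ATG7-/- and ATG12-/-.

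NET1 encodes a guanine nucleotide exchange factor that activates RHOA, a GTPase of the actin cytoskeleton. Wild-type EVs had 484, 340 and 397 TPM of it, ATG7-/- EVs 515, 499 and 612 and ATG12-/- EVs 454, 568 and 443. Cells had 10.2, 3.94 and 13.4 TPM in wild type, 10.3, 9.39 and 14.9 in ATG7-/- and 10.7, 13.1 and 12.2 in ATG12-/-. EVs and cells were again apart in every library, by a factor of 44.4, 47.0 and 40.7 in the means of the 3 genotypes. Over all EV libraries NET1 had 479 ± 83.0 TPM and RAB13 472 ± 151 (SD, n = 9 each). The order of these genes turned with genotype: NET1 lay above RAB13 in wild-type and ATG7-/- EVs and below it in ATG12-/- EVs, without overlap each time.

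KIF1C, the kinesin that carries mRNAs of this class, had 209, 156 and 129 TPM in wild-type EVs, 256, 238 and 219 in ATG7-/- EVs and 214, 224 and 183 in ATG12-/- EVs. Its cell values were 8.36, 14.1 and 9.0 TPM in wild type, 11.5, 4.81 and 12.1 in ATG7-/- and 18.5, 11.4 and 10.3 in ATG12-/-. Every EV library exceeded every cell library, and the overall means differed 18.3-fold.

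TRAK2 encodes an adaptor that links mitochondria to microtubule motors. EVs had 30.5, 26.8 and 28.2 TPM of it in wild type, 30.7, 28.1 and 25.8 in ATG7-/- and 44.6, 48.0 and 41.5 in ATG12-/-, while the 9 cell libraries lay between 0.172 and 1.06 TPM. Its EV level was thus well below that of RAB13, yet its ratio of means was alike, at 61.6, because its cell level was near the bottom of the measured range.

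STRADB, on the other strand of the TRAK2 locus, encodes a pseudokinase of the complex that activates the kinase LKB1. It had the highest EV level of the 10: 624, 553 and 457 TPM in wild type, 593, 588 and 703 in ATG7-/- and 1079, 1074 and 802 in ATG12-/-. Its cell libraries held 21.2, 21.5 and 16.7 TPM in wild type, 14.3, 14.6 and 8.23 in ATG7-/- and 16.2, 15.0 and 21.1 in ATG12-/-. EVs and cells did not overlap, and the ratio of means was 43.5.

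The other 5 members stood apart less or not at all. PKP4, a plakophilin-like protein of cell junctions, ranged from 24.6 to 80.8 TPM in EVs (median 55.4) and from 2.32 to 9.44 in cells (median 6.54), without overlap. CYB5R3, a reductase of cytochrome b5, ranged from 20.1 to 105 TPM in EVs (median 48.1) and from 10.9 to 25.4 in cells (median 18.3), and DDR2, a collagen receptor kinase, from 12.9 to 40.1 in EVs (median 27.0) and from 6.07 to 18.4 in cells (median 8.64). Both overlapped between EVs and cells when all genotypes were pooled. DYNLL1, a dynein light chain, was low, at 0 to 20.4 TPM in EVs and 0 to 7.46 in cells. KANK2, a protein of adhesion sites, had a median of 12.9 TPM in EVs (3.58 to 58.4) and 19.4 in cells (13.7 to 29.6), the one member whose EV median lay below its cell median.

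In EVs the order of mean levels was STRADB, NET1, RAB13, KIF1C, CYB5R3, PKP4, TRAK2, DDR2, KANK2 and DYNLL1. The 3 leading genes overlapped one another when the 9 libraries were pooled, KIF1C lay below them in every library, and the EV ranges of the 6 genes after KIF1C overlapped their neighbours. The 10 genes together took 1478 to 2758 TPM of an EV library, or 0.148% to 0.276% of it, and 93.1 to 118 TPM of a cell library.

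**Figure D2:**
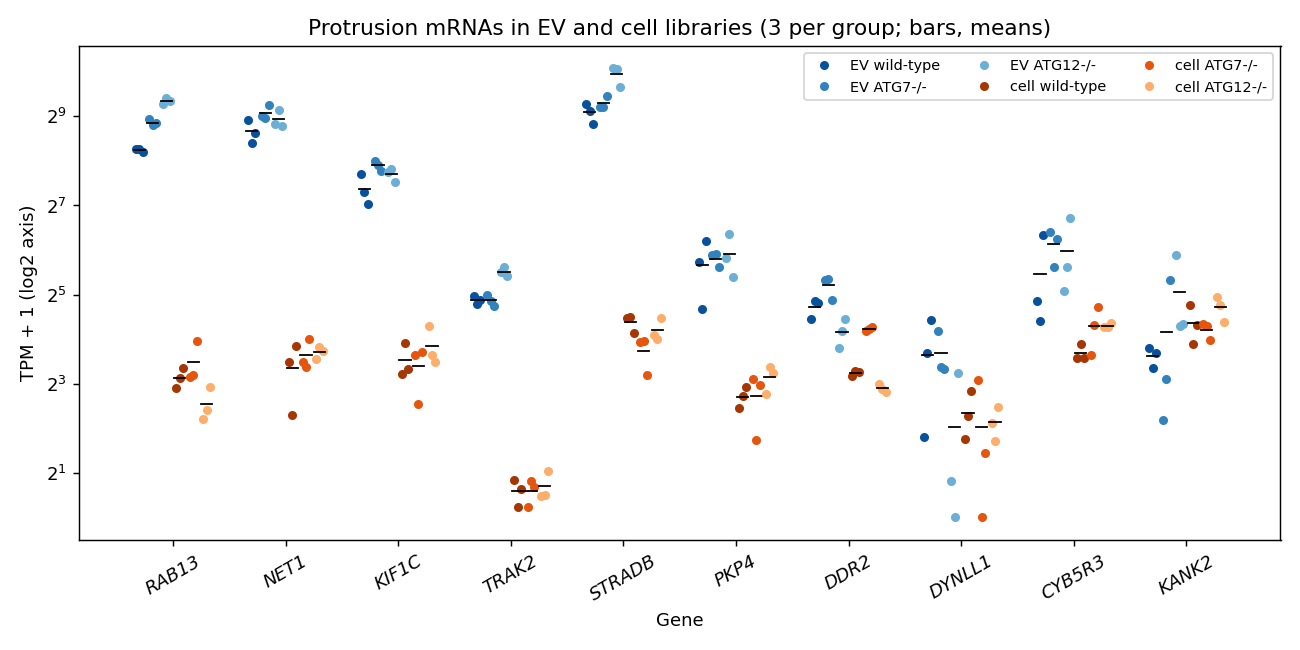
TPM + 1 of the 10 mRNAs on a log2 axis (y) by gene (x), with 1 point for each of the 18 libraries, coloured by group, and bars for the group means. For RAB13, NET1, KIF1C, TRAK2, STRADB and PKP4 all 9 EV points lie above all 9 cell points.

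In total 6 of the 10 had all 9 EV libraries above all 9 cell libraries, as did 1.95% of 24647 genes, and none had them all below, as 3.64% of genes had. Nothing is read from this, since the EV-to-cell difference served to pick the set. After scaling, RAB13 ranked 2 of 24647 genes by its difference of log2(TPM + 1) and 1 of 6903 protein-coding genes that averaged 5 TPM or more. NET1 ranked 4 and 2, STRADB 5 and 3, TRAK2 10 and 6, KIF1C 16 and 8 and PKP4 78 and 47 in the same orders. CYB5R3 ranked 854, DDR2 1769, DYNLL1 3280 and KANK2 12927 of 24647. The set thus joins 5 genes at the very top of this order with others spread far down it.

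By genotype, the scaled log2 difference of RAB13 was 4.66 in wild type, 5.21 in ATG7-/- and 6.70 in ATG12-/- (SE 0.27 each), and that of NET1 4.98, 5.24 and 5.09 (SE 0.34). STRADB had 4.22, 5.37 and 5.60 (SE 0.27), TRAK2 4.0, 4.16 and 4.71 (SE 0.34), KIF1C 3.38, 4.38 and 3.75 (SE 0.37) and PKP4 2.38, 3.00 and 2.59 (SE 0.46). RAB13, STRADB, TRAK2, DDR2 and KANK2 had their highest difference in ATG12-/-. NET1, KIF1C, PKP4, CYB5R3 and DYNLL1 had theirs in ATG7-/-, though NET1 barely moved between genotypes. CYB5R3 had 1.04, 1.65 and 1.36 (SE 0.49) and DDR2 1.00, 0.75 and 1.11 (SE 0.29). DYNLL1 had 0.61, 1.95 and -0.83 (SE 0.87) and KANK2 -1.18, -0.87 and 0.01 (SE 0.64). Averaged over genotypes, the PKP4 difference went from 2.66 to 0.71 with protein-coding transcripts alone, and that of TRAK2 from 4.29 to 2.64 with a pseudocount of 5 and to 5.56 with one of 0.1. The median over the 10 was 2.88, 3.58 and 3.17, and over all genes -0.76, -0.49 and -0.55.

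**Figure D3:**
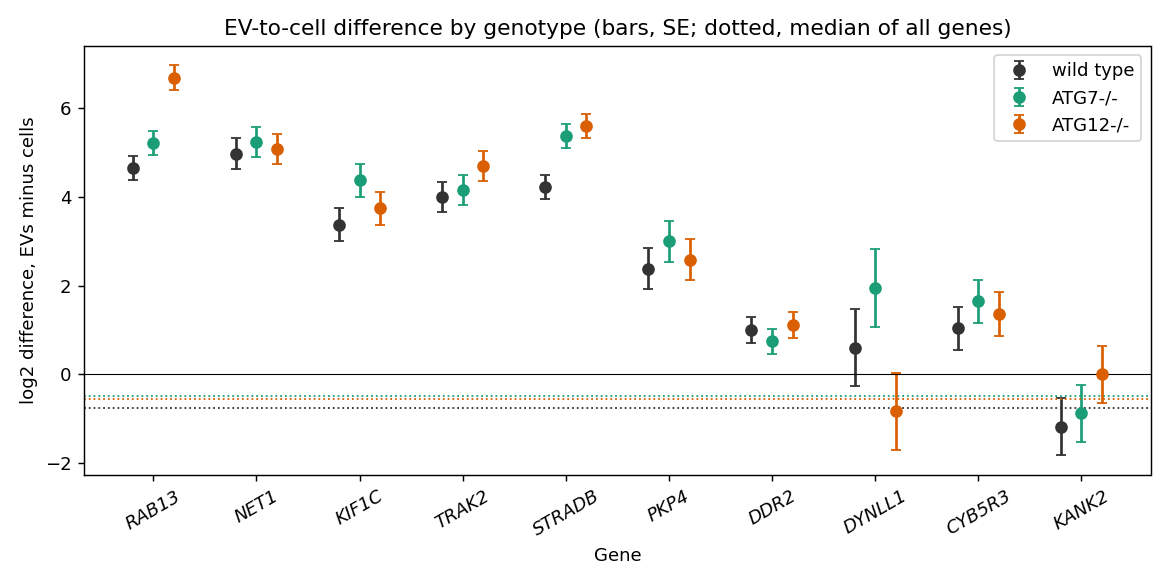
Scaled log2 difference between EVs and cells (y) for each of the 10 mRNAs (x) in 3 genotypes, with SE bars and dotted lines at the median of all genes. RAB13 rises from 4.66 in wild type to 6.70 in ATG12-/-, while NET1 stays between 4.98 and 5.24.

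The transcript that took most of the signal was often not the full-length coding one. RAB13-204, an annotated transcript of 868 bases with no coding frame (chr1:153982061-153986358), had 389 ± 139 TPM in EVs, 82.3% of the RAB13 total, against 79.7 ± 21.7 for the coding RAB13-201 of 1176 bases (SD, n = 9 each). RAB13-204 has 102 bases that no other RAB13 transcript holds. It lacks the GA-rich window printed above: the transcripts with that window had 17.2% of the RAB13 total in EVs and 41.5% in cells. Transcripts with the windows printed for the others held 99.5% of the EV total of TRAK2, 45.2% of CYB5R3, 39.9% of KIF1C, 19.6% of PKP4 and 2.76% of KANK2. In cells the split was unstable, with RAB13-204 listed at 0 in 3 of 9 libraries and at 90.3% of the gene in another, so RAB13 in cells is better read as a gene total.

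NET1-206, a noncoding transcript of 599 bases (chr10:5446609-5452897), held 85.5% of the NET1 total in EVs and 89.3% in cells, and 33 of its bases are in no other NET1 transcript. Weighted by length, which follows the reads, NET1-206 held 53.4% in EVs and the coding NET1-201 of 3402 bases 37.3%. For KIF1C the short coding fragment KIF1C-204 (799 bases) had 118 TPM in EVs and the full KIF1C-201 (7919 bases) 80.96, but by length KIF1C-201 held 86.8%. TRAK2-201, the full coding transcript of 6510 bases, held 99.5% of the TRAK2 total in EVs, GA-rich window included. PKP4-211, a transcript marked for nonsense-mediated decay, led PKP4 with 40.6%, and DDR2-201, the full coding form, held 91.0% of DDR2. Shares of transcripts with few bases of their own rest on few reads and are uncertain.

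**Figure D4:**
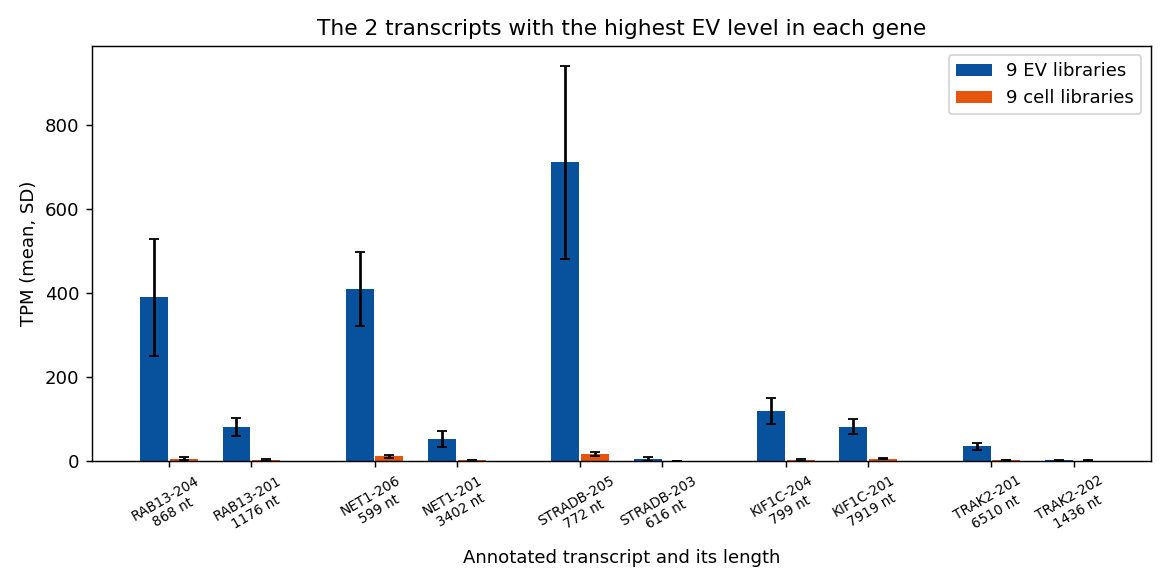
Mean TPM with SD (y) of the 2 transcripts with the highest EV level in RAB13, NET1, STRADB, KIF1C and TRAK2 (x, with lengths), in 9 EV libraries (blue) and 9 cell libraries (orange). RAB13-204, NET1-206 and STRADB-205 are the highest bars, at 389, 409 and 711 TPM in EVs.

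Nearly all STRADB signal lay in STRADB-205, a transcript of 772 bases that held 98.9% of the gene in EVs and 95.4% in cells. It starts inside TRAK2: its exon 1 shares 144 bases (chr2:201387858-201388001, 18.7% of the transcript) with exon 13 of 16 of TRAK2-201 on the other strand. The first 30 of these bases, on the plus strand, are shown because reads from here fit either gene once strand is lost.
STRADB-205, chr2:201387858-201387887: AGAACCTGGATCTTCCGCTGCCATTCTTCA
Without a stated strand setting, reads from the shared bases cannot be assigned with certainty. Over the 9 EV libraries, the scaled log2 values of TRAK2 and STRADB had a Pearson correlation of 0.90, a description over libraries that share 3 genotypes. RAB13, on chromosome 1, had 0.88 with STRADB and 0.84 with TRAK2 over the same libraries. In the 9 cell libraries that of TRAK2 and STRADB was 0.06, where TRAK2 was near 0.

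Of the 10 genes, 6 share no exon bases with a gene of the table on the other strand. KIF1C shares 84 with AC004771.1 (chr17:5019214-5020093, minus strand), an antisense gene that had 94.6, 108 and 66.4 TPM in wild-type EVs, 269, 238 and 323 in ATG7-/- EVs and 281, 224 and 255 in ATG12-/- EVs. Cell libraries held 9.35 to 25.2 TPM of it. Like KIF1C it was higher in each EV library than in any cell library, and in EVs it was higher in both knockouts than in wild type without overlap. PKP4 shares 418 bases with PKP4-AS1, which was low in EVs (0 to 5.50 TPM) and cells (2.68 to 8.33 TPM).

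The comparison of ATG7-/- with wild-type EVs asked whether RNA in EVs differs without LC3 conjugation. None of the 10 passed limma's test (adjusted p under 0.05 over 17076 genes), where 0.141% of all genes passed, and 3 of the 10 had an unadjusted p under 0.05, as had 7.38% of all genes. RAB13 was 0.71 higher on the log2 scale (SE 0.18, limma's adjusted p = 0.321), KIF1C 0.65 (SE 0.27, adjusted p = 0.658) and NET1 0.52 (SE 0.23, adjusted p = 0.667). RAB13, NET1, KIF1C and DDR2 had 3 ATG7-/- libraries above 3 wild-type ones, as had 6.39% of all genes, and no member lay below, where 7.53% of genes did. All 10 log2 fold changes were above 0, with a median of 0.47 against -0.00 over all genes. CYB5R3 had the largest, at 0.98 (SE 0.59, limma's adjusted p = 0.758), and its wild-type EV libraries spread from 20.1 to 79.9 TPM.

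Between ATG12-/- and wild-type EVs, RAB13 had the smallest p of the 10: it was 1.17 higher (SE 0.18) and missed the threshold, with limma's adjusted p = 0.0730. Again none of the 10 passed and 0.105% of all genes did, with RAB13, STRADB and 7.94% of all genes at an unadjusted p under 0.05. Adjusted p fell to 0.0432 with a pseudocount of 0.1 and to 0.0352 without transcripts under 200 bases, and ranged from 0.128 to 0.218 with single libraries left out. Counting protein-coding transcripts alone, which leaves out RAB13-204, the log2 fold change was 0.63 (adjusted p = 0.668). Over all 10 other settings adjusted p ranged from 0.0352 to 0.801, and RAB13 passed in 2 of them.

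STRADB was 0.93 higher in ATG12-/- EVs (SE 0.22, limma's adjusted p = 0.267) and TRAK2, on its other strand, 0.71 (SE 0.36, adjusted p = 0.660). RAB13, TRAK2, STRADB and KANK2 lay above wild type in all libraries, as did 4.35% of genes, and DDR2 lay below, as did 6.99%. DYNLL1, at 0.764, 0 and 8.48 TPM in ATG12-/- EVs against 2.47, 11.8 and 20.4 in wild type, had -1.90 (SE 0.98, adjusted p = 0.660). The median over the 10 was 0.55 and over all genes -0.08. Both knockouts were set against the same 3 wild-type libraries, so their fold changes are not independent.

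Setting ATG12-/- against ATG7-/- EVs removes the shared controls, and again none of the 10 passed, with 0.0468% of all genes passing. An unadjusted p under 0.05 was found for 4 of the 10 and for 6.04% of all genes. RAB13 was 0.46 higher (SE 0.18, limma's adjusted p = 0.770) and STRADB 0.62 higher (SE 0.22, adjusted p = 0.680), both without overlap, as was TRAK2 at 0.63 (SE 0.36, adjusted p = 0.875). Among all genes 5.05% were above without overlap and 6.75% below. DDR2 was lower without overlap, at -1.07 (SE 0.42, adjusted p = 0.750), and so was DYNLL1 at -2.31 (SE 0.98, adjusted p = 0.798), a value that ranged from -3.70 to -1.21 over the other settings.

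**Figure D5:**
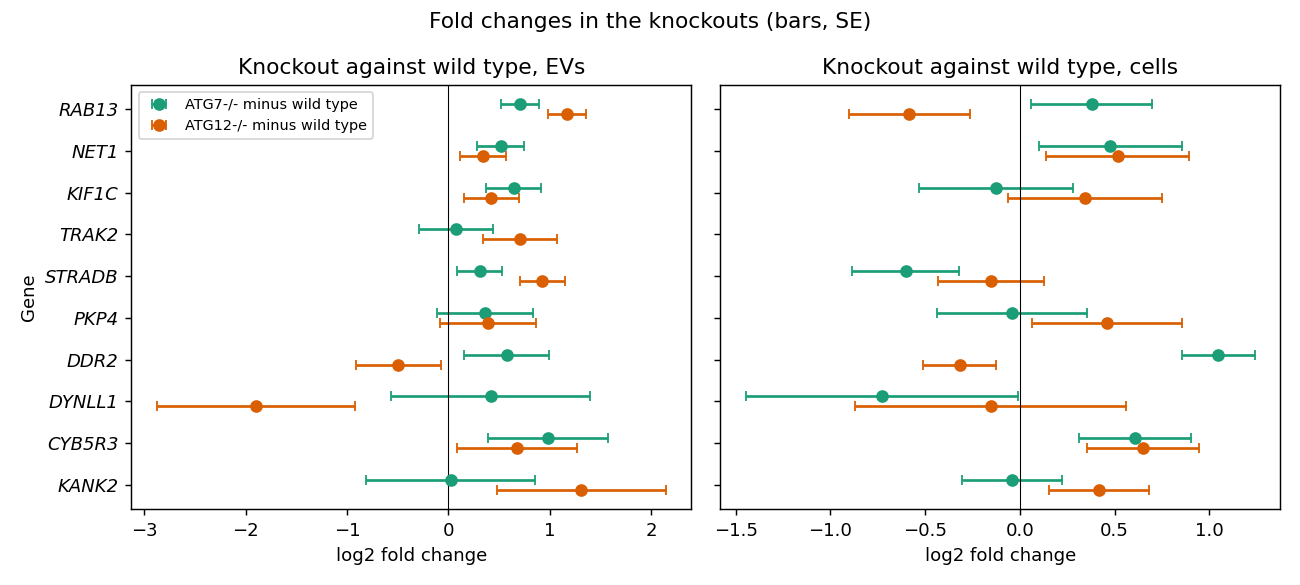
Log2 fold changes (x, SE bars) of each mRNA (y) in ATG7-/- and ATG12-/- against wild type, in EVs (left) and in cells (right, with TRAK2 not tested). RAB13 stands at 0.71 and 1.17 in EVs, and in cells DDR2 stands at 1.05 in ATG7-/-.

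In cells 9 of the 10 could be tested, since TRAK2 reached 1 TPM in fewer than 3 libraries. None passed in ATG7-/- cells against wild type, where 0.200% of 22471 genes did. DDR2, 1 of the 9, had an unadjusted p under 0.05, as had 14.4% of all genes, so this count is near the background. DDR2 was the nearest, with 17.2, 17.6 and 18.4 TPM in ATG7-/- cells, 8.05, 8.74 and 8.64 in wild type and 6.92, 6.39 and 6.07 in ATG12-/-. The 3 genotypes did not overlap. DDR2 was 1.05 higher in ATG7-/- than in wild-type cells (SE 0.19, limma's adjusted p = 0.0823) and 1.37 lower in ATG12-/- than in ATG7-/- cells, at -1.37 (SE 0.19, adjusted p = 0.0562). The latter passed with a pseudocount of 0.1 (adjusted p = 0.0438), a filter of 5 TPM (0.0327) or protein-coding transcripts alone (0.0392). It did not pass in the other 7 settings, where adjusted p reached 0.254. With single cell libraries left out it passed in none of 9 refits (adjusted p 0.0724 to 0.217). In EVs DDR2 followed the same order, with means of 35.9 ± 6.64 TPM in ATG7-/-, 25.3 ± 3.75 in wild type and 17.0 ± 3.94 in ATG12-/- (SD, n = 3 each).

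STRADB lay below wild type in ATG7-/- cells without overlap (-0.60, SE 0.28, limma's adjusted p = 0.372), as did 11.8% of genes, while DDR2 lay above, as did 8.15%. In ATG12-/- cells none of the 9 passed against wild type, with 0.134% of all genes passing. None of the 9 had an unadjusted p under 0.05, against 15.0% of all genes. CYB5R3 lay above wild type in all ATG12-/- cell libraries (0.65, SE 0.29, adjusted p = 0.350), as did 10.7% of genes, and DDR2 below, as did 13.0%. Between ATG12-/- and ATG7-/- cells, where none of the 9 and 0.142% of genes passed, and 2 of the 9 and 9.91% of genes had an unadjusted p under 0.05, RAB13 was at -0.96 (SE 0.32, adjusted p = 0.370) and lay below without overlap, like DDR2 and 7.45% of genes. With protein-coding transcripts alone RAB13 turned to 1.51 (adjusted p = 0.605), a value set near the floor. The coding RAB13-201 was listed at 0, 0 and 0 TPM in ATG7-/- cells and at 2.48, 0 and 6.19 in ATG12-/- cells. STRADB and KANK2 lay above, as did 9.13%. NET1 had 0.48 and 0.52 in the 2 knockouts against wild-type cells (SE 0.38 each, adjusted p = 0.603 and 0.554).

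Whether the EV-to-cell difference itself changed in a knockout was tested over all 18 libraries. In ATG12-/- against wild type RAB13 passed: its difference was larger by 2.04 on the log2 scale (SE 0.39, limma's adjusted p = 0.0373), the 1 call among the 10, with 0.272% of 24647 genes passing. RAB13 was higher in ATG12-/- EVs (621 to 681 TPM against 295 to 309) and had 3.59 to 6.63 TPM in ATG12-/- cells against 6.43 to 9.19 in wild type, which overlap. The call was lost in 14 of 18 refits with a library left out (adjusted p 0.0233 to 0.135 over the 18). It was kept only without ATG7-/- cell replicate 1, 2 or 3 or ATG12-/- cell replicate 3. With protein-coding transcripts alone the value was 0.19 (adjusted p = 0.971). It is uncertain, since RAB13-201 was listed at 0, 6.48 and 0 TPM in wild-type cells and 2.48, 0 and 6.19 in ATG12-/- cells. RAB13 was picked with EV-to-cell differences of these libraries known.

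STRADB had the next largest value among members other than DYNLL1, 1.38 in ATG12-/- (SE 0.39, limma's adjusted p = 0.233), and 1.15 in ATG7-/- (SE 0.39, adjusted p = 0.358). In ATG7-/- none of the 10 passed and 0.276% of all genes did, with STRADB and 8.88% of all genes at an unadjusted p under 0.05. There RAB13 stood at 0.55 (SE 0.39, limma's adjusted p = 0.723) and KIF1C at 1.00 (SE 0.52, adjusted p = 0.602). NET1 showed little change in either knockout, at 0.26 and 0.11 (SE 0.49 each, adjusted p = 0.920 and 0.966). The median over the 10 was 0.58 in ATG7-/- and 0.34 in ATG12-/-, and over all genes 0.22 and 0.19.

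The genes most like RAB13 over the 18 libraries, among 7563 that averaged 5 TPM or more, were TRAK2 (Pearson r = 0.99), SH3PXD2A (0.99), VASH1-AS1 (0.98), NET1 (0.98) and STRADB (0.98). SH3PXD2A, the scaffold TKS5 of invasive protrusions, had 32.6 to 60.3 TPM in EVs and 1.88 to 4.78 in cells. Its 3′ UTR holds 16 motif matches in 7787 bases (2.05 per kb). The reverse complement has 16 matches there too, and 49.5% of the bases are A or G. For NET1 they were TRAK2 (0.99), MTURN (0.98), RAB13 (0.98), SH3PXD2A (0.98) and RPL39 (0.97), a ribosomal protein mRNA with 929 TPM in EVs and 102 in cells. These correlations are set mostly by the shared split into 9 EV and 9 cell libraries. On deviations from the 6 group means, the most like RAB13 were ALMS1 (0.88), SH3PXD2A (0.84), TNFAIP1 (0.79), RPS15A (0.74) and GHITM (0.72). For NET1 they were MIR215 (0.84), ZNF573 (0.72), SNORA7A (0.72), BOLA2B (0.71) and MIR320C1 (0.70), of which MIR215 and MIR320C1 were each above 0 in 3 of 18 libraries, all of cells. The value of MIR215 rests on the 3 wild-type cell libraries alone. No gene other than SH3PXD2A and fellow members came up in more than 1 of these 4 orders.

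Further mRNAs reported at protrusions were listed apart from the 10, and 13 were measured. This list was chosen with earlier results of these data known, so its p-values only describe the genes and are no independent support. In wild type 5 of the 13 were higher in EVs, where 4.02% of all genes were, in ATG7-/- 2 of 13 (2.71% of all) and in ATG12-/- 2 of 13 (2.27% of all). RASSF3, a RAS-association protein whose mRNA is one of the APC-dependent class, had 14.7 to 45.5 TPM in EVs and 0 to 3.10 in cells. Its log2 difference was 3.91, 2.93 and 4.14 in wild type, ATG7-/- and ATG12-/- (SE 0.43, limma's adjusted p = 2.89e-05, 0.000626 and 2.27e-05). ACTB, the actin mRNA that a different 3′ UTR element takes to the cell edge, was higher by 1.96, 1.22 and 0.81 (SE 0.20, adjusted p at most 0.0186). P4HB (1.76), PALLD (1.59) and RHOA (1.497) passed in wild type, and FN1 was lower in ATG12-/- at -2.58 (limma's adjusted p = 0.0230), where 8.97% of all genes were lower. The list's median difference was 0.74, 0.50 and 0.81, against -0.76, -0.49 and -0.55 for all genes.

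The carriers and partners of these mRNAs were mostly not called between EVs and cells. Their lists too were chosen with earlier results known, so the calls are description. Among all genes 4.02% were higher in EVs in wild type and 2.71% in ATG7-/-. Of 12 RNA carriers and granule proteins, FXR1, an RNA-binding relative of FMR1, was the 1 called, higher in wild-type EVs by 3.46 (SE 0.84, limma's adjusted p = 0.00808). Of 11 partners and relatives of RAB13, RAB10 was higher in wild type (2.64) and MICALL1, a RAB effector, in ATG7-/- (1.67), while ST5, a RAB13 activator, was lower in wild type (-2.74), where 20.6% of all genes were lower. Of 15 genes related to the kinesin KIF1C or the dynein chain DYNLL1, DYNC1LI2 (2.69) and DYNLRB1 (1.80) were higher in wild type. DYNLT3 (-3.04) and PTPN21 (-2.07) were lower in wild type, where 20.6% of all genes were lower. DYNC1LI2 and DYNLRB1 were higher in ATG7-/- too (2.56 and 2.11). None of 9 genes of mitochondrial transport with TRAK2 was called. STK11, which is LKB1, was higher in wild type (1.53), 1 of 3 of the STRADB complex. CYB5R4 was lower in all 3 genotypes (-1.37, -1.58 and -1.38, with 20.6%, 8.68% and 8.97% of all genes lower), the 1 called of 13 paralogues and partners of PKP4, DDR2, CYB5R3 and KANK2. No gene of these lists passed in any of the 6 knockout comparisons or the 2 tests of the EV-to-cell difference.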

How the data were processed

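The authors deposited 1 table of TPM for 203027 transcripts in 18 libraries (total RNA, stranded SMARTer kit, 22 PCR cycles, single-end 50-base reads, per the labels' protocols). Salmon 0.14 and DESeq2 are named, without a role, in the submitters' processing notes. Build, annotation and strand setting are not given in the labels. Since TPM hold no depth, no count test or counting interval was possible. Identifiers without version matched GENCODE 29 (GRCh38) for 202941 transcripts, and the 86 others held at most 0.038% of a library. TPM were summed per gene.

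The median of ratios gave each library's scale. Genes that reached 1 TPM in 3 or more fitted libraries entered limma 3.58.1 (R 4.3.3) as log2(TPM + 1) values (mean-variance trend, both-sided, Benjamini-Hochberg, 0.05), in the 9 EV libraries, the 9 cell libraries, or all 18 for EV-to-cell differences. This scale understates changes of low genes. Printed TPM are unscaled. The p-values measure the spread between libraries labelled biological replicates, with no word on separate cultures. The 3′ UTR was that of the coding transcript with the highest mean TPM and a 3′ UTR of at least 50 bases. Scripts were tested on simulated data. Named were all members, their exon-sharing opposite genes, the 5 most like RAB13 or NET1 (no clone or pseudogene names) and list genes past the threshold. Members and lists were chosen with earlier results of these data known. One gene list is not reported here.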

Additional observations from a re-analysis of the deposited data

Results flagged for a closer look

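The EV-to-cell difference of RAB13 was larger in ATG12-/- than in wild type by 2.04 on the log2 scale, by limma's test of the difference itself (SE 0.39, adjusted p = 0.0373). This call was lost in 14 of 18 refits with a library left out and in 4 of 10 other settings. RAB13 was also picked with the EV-to-cell differences of these libraries known. The 3 ATG12-/- EV libraries lay above all wild-type EV libraries, and the cell libraries of the 2 genotypes overlapped. In EVs the mean of RAB13-204 went from 235 TPM in wild type to 554 in ATG12-/-, and that of RAB13-201 from 61.6 to 92.4. With protein-coding transcripts alone, which leaves out RAB13-204, the difference between genotypes was 0.19 (adjusted p = 0.971). That value is uncertain, since RAB13-201 was listed at 0 in cell libraries of both genotypes.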

How the results depend on the processing

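Among the 10 genes, calls changed in 3 comparisons. In ATG12-/- against wild-type EVs the count rose from 0 to 1 (RAB13) with a pseudocount of 0.1 and without transcripts under 200 bases. In ATG12-/- against ATG7-/- cells it rose from 0 to 1 (DDR2) with a pseudocount of 0.1, a filter of 5 TPM and protein-coding transcripts alone. For the EV-to-cell difference in ATG12-/- against wild type it fell from 1 to 0 without scaling (RAB13 1.71, adjusted p = 0.112), without the trend and with sample weights (2.14, 0.175), with the replicate block (2.04, adjusted p = 0.0617) and with protein-coding transcripts alone (0.19, 0.971), and ranged from 0 to 1 with single libraries left out. RAB13 in ATG12-/- against ATG7-/- cells reversed to 1.51 with protein-coding transcripts alone (adjusted p = 0.605), where RAB13-201 was listed at 0 in every ATG7-/- cell library. Same-numbered samples did not deviate together (r from -0.037 to 0.054 over 45 pairs) and the own number correlated best in 13 of 45 cases. Whether same-numbered samples shared a culture is not in the labels, and this check cannot decide it. The block changed no other call of the 10. With the block 9, 3 and 5 genes of all were called in the 3 EV comparisons, 13, 12 and 9 in the 3 cell comparisons and 45 and 46 for the EV-to-cell differences. Over all genes, calls in ATG7-/- EVs ranged from 5 to 26 around 24 and in ATG12-/- EVs from 1 to 27 around 18; in cells they ranged from 5 to 58 around 45, from 3 to 44 around 30 and, between the knockouts, from 6 to 50 around 32. Between the knockout EVs they ranged from 4 to 13 around 8, and for the EV-to-cell differences from 0 to 81 around 68 in ATG7-/- and from 2 to 89 around 67 in ATG12-/-. Leaving out the scaling moved the all-gene median of the wild-type EV-to-cell difference by 0.28 and its calls from 991 higher and 5081 lower to 1575 and 3348. Members with a higher mean in EVs were counted in 6 of the other settings and in 18 refits with a library left out. Each time they were 9 or 10 of the 10, KANK2 being the one at issue. The changed filters, the sample weights and the replicate block were not among these 6. Unknown depth limits the low members, above all DYNLL1 and, in cells, TRAK2.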
